A study of Mus musculus with 6 samples.

Results

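The genes described here are the nuclear effectors of Hedgehog signalling with their inhibitor, and genes reported to respond to the pathway in connective tissue cells: Gli1, Gli2, Gli3, Sufu, Foxf1, Foxf2, Foxl1, Bmp4, Sfrp1 and Mycn. They were taken by gene symbol from the probe sets that name a single gene, with the probe set of highest mean signal kept for each gene. All 10 were measured, out of 22180 genes on the array. RNA came from whole livers of 6 mice, all male and of C57BL/6 background, and each liver was hybridised to its own Affymetrix array. In the SHH group (mice 26, 28 and 31) the liver expressed the Hedgehog ligand Sonic Hedgehog (SHH), brought in by hydrodynamic transfection, in which DNA injected quickly with much fluid is taken up mainly by hepatocytes. In the GFP group (mice 13, 21 and 6) the liver expressed green fluorescent protein. The labels give neither the age of the mice, nor the species of the SHH sequence, nor the way GFP was introduced, nor a promoter or a cell type for either transgene. The question was whether the ligand alters hepatic fibrosis and the genes tied to it.

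When a Hedgehog ligand binds the receptor Patched, the membrane protein Smoothened is released, and the zinc finger factors Gli2 and Gli3 leave their inhibitor Sufu and enter the nucleus. There they switch on target genes, among them Gli1, which adds to the response. In liver the cells that respond to the ligand are chiefly stellate cells and other cells of the mesenchyme, where Foxf1, Foxf2, Foxl1, Bmp4 and Sfrp1 are known as genes downstream of the pathway in developing gut and lung of the mouse. Hepatocytes give most of the RNA of a liver, so transcripts of the mesenchyme are read there as a small part of a mixture.

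Values are log2 signals after RMA, and a difference is the mean of the SHH livers minus the mean of the GFP livers on that scale. Signals of different probe sets are not amounts that can be set against each other. The signal of a gene, or the mean signal of a list, was therefore compared across livers. Differences were set beside those of other genes, and signals beside the median of all genes to call them dim. The median signal over genes was 4.66 to 4.77 in the 6 arrays. A probe set below it is dim, and dim probe sets tend to understate a change. Array to array correlations over all probe sets were 0.975 to 0.979 among SHH livers, 0.975 to 0.979 among GFP livers and 0.971 to 0.981 between the groups. The mouse Shh probe set gave 4.57, 4.28 and 4.63 in SHH mice 26, 28 and 31, against 3.43, 3.67 and 3.86 in GFP mice 13, 21 and 6. Whether it detects the introduced sequence was not tested. Hepatocyte markers were bright in every liver, with a mean over 9 measured markers of 11.91 to 12.01 in SHH livers and 11.95 to 12.00 in GFP livers.

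None of the 10 genes passed the threshold, an adjusted p under 0.05 by limma over all 22180 genes, and their adjusted p values ran from 0.576 for Foxf1 to 0.998 for Gli1. Over all genes limma called 0 higher and 0 lower (0%), and an unadjusted p under 0.05 was reached by 738 genes upward (3.33%) and 889 genes downward (4.01%). At that unadjusted level 1 of the 10 genes was higher, Foxf1, and 0 were lower. The largest of the 10 differences was that of Foxf1, a 1.40-fold higher signal in SHH livers. The other 9 genes lay between -0.26 (Mycn) and 0.22 (Foxf2). By limma's 95% interval no gene of the 10 reached a change of 2-fold in either direction. Means were higher in SHH livers for 6 genes and lower for 4, where 43.8% of all genes had the higher mean in SHH livers. The median difference of the 10 was 0.06, and that of all genes was -0.03. Without regard to sign, the median size was 0.17 for the 10 genes and 0.12 for all genes.

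**Figure D1:**
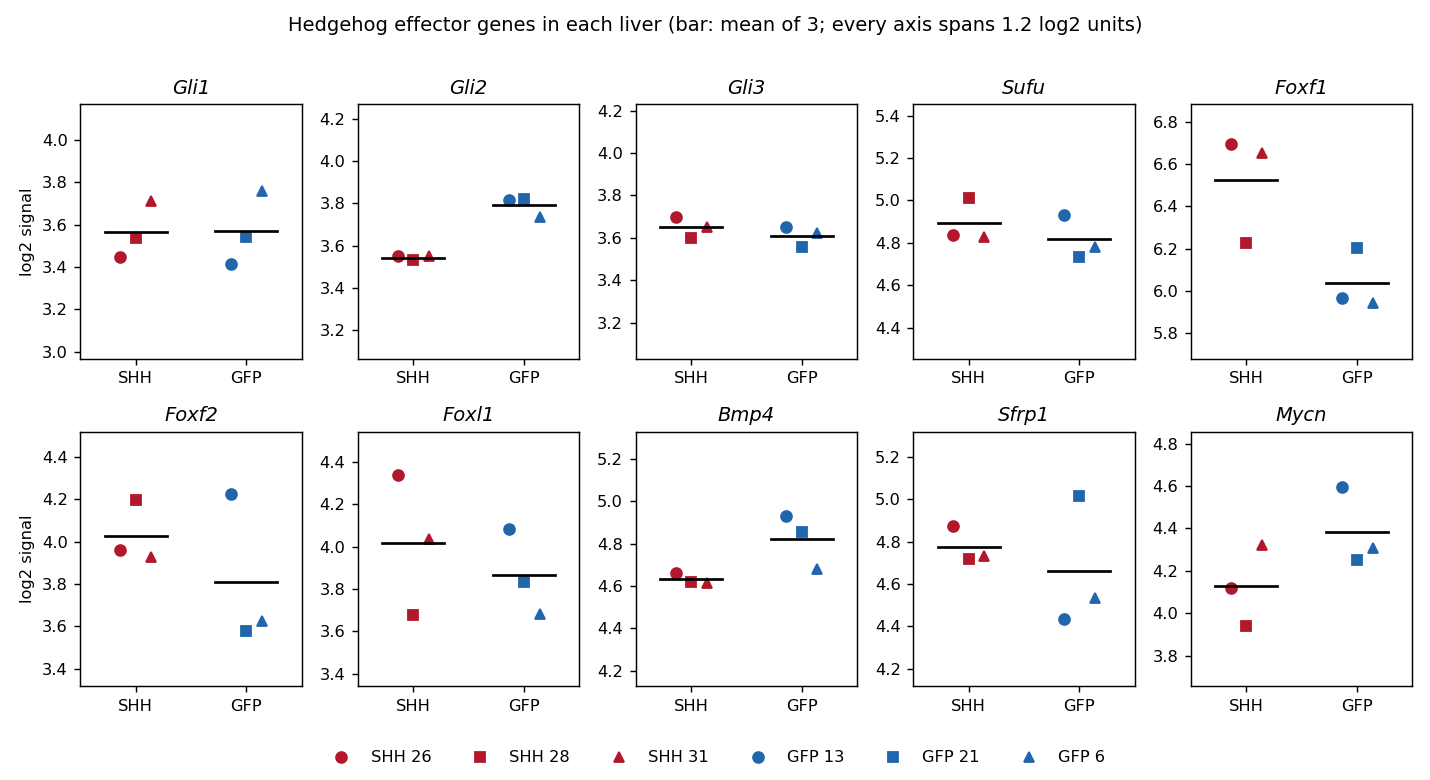
Log2 signal of each of the 10 genes (vertical axis, 1.2 log2 units in every panel) in the 3 SHH livers (red) and the 3 GFP livers (blue); each point is 1 mouse and each bar the mean of 3. All SHH livers lie above all GFP livers for Foxf1, and all lie below for Gli2 and Bmp4; the points of the other 7 genes overlap.

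In 3 of the 10 genes the livers of the groups did not overlap. Every SHH liver lay above every GFP liver for Foxf1, as in 5.26% of all genes, and every SHH liver lay below every GFP liver for Gli2 and Bmp4, as in 7.25% of all genes. For each of these 3 genes the exact two-sided permutation test gave p = 0.1, the smallest that 3 mice against 3 allow. Groups that do not overlap always give this value, so it adds nothing to the lack of overlap. The same exact permutation test gave p = 0.3 for Mycn, p = 0.9 for Gli1 and values between these for the other 5 genes.

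Promoter sequence is shown for Gli2 and Bmp4, because the groups did not overlap for them, and for Mycn, because its difference was the lowest and its promoter held a match to the core searched. Gli factors bind the sequence GACCACCCA. Sequences are from RefSeq, build GRCm38.p6, from 250 bases before to 50 bases after a transcript's annotated start, and the table held 6 of the 10 genes (Gli2, Gli3, Sufu, Foxf2, Bmp4 and Mycn). For 5 of them that start is the outer end of the gene in RefSeq's gene table, while for Gli2 it lies 786 bases inside it. They are written 5′ to 3′ on the strand of the gene, which is the minus strand for these 3: Gli2 at chr1:119053570-119053869, Bmp4 at chr14:46390620-46390919 and Mycn at chr12:12941787-12942086. Capitals mark a match to a form of the Gli sequence.
Gli2: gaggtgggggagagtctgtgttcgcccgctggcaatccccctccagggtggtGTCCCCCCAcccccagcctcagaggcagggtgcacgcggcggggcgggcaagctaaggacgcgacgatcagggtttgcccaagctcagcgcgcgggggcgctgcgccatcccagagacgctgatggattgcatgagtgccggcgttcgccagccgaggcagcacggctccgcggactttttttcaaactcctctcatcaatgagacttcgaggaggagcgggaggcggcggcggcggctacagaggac
Bmp4: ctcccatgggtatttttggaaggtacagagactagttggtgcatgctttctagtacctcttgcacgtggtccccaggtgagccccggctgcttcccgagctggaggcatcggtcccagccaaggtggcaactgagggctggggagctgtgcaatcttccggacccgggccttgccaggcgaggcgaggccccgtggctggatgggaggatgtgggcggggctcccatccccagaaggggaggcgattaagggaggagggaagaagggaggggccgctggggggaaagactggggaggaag
Mycn: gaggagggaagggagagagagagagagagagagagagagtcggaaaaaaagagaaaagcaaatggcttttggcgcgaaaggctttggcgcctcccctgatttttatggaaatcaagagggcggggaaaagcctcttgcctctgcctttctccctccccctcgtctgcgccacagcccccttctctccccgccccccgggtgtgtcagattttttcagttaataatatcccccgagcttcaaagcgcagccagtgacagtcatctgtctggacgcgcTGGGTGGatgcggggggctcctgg

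Both strands were searched for 3 forms of the sequence, which overlap, since each match to the full form is also a match to the others. The full form GACCACCCA was in 0 of the 6 promoters, and in 0.253% of the 32851 promoters in the table. The 7-base core CCACCCA was in the Mycn promoter, on the strand opposite the gene and 26 bases after the start, and 9.30% of all promoters hold it. The looser form GNCCNCCCA was in the Gli2 promoter, starting 198 bases before the start, and 6.72% of all promoters hold it. The Gli3, Sufu, Foxf2 and Bmp4 windows held none of the 3. The 6 windows held 56.3% to 71.3% G and C, against a median of 52.7% over all promoters. Gli1, Foxf1, Foxl1 and Sfrp1 were not in the table.

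Among the Gli factors, Gli1 is the usual readout of the pathway, since its own transcription depends on Hedgehog input. Its log2 signal was 3.45, 3.54 and 3.71 in SHH mice 26, 28 and 31, against 3.41, 3.54 and 3.76 in GFP mice 13, 21 and 6. The livers of the groups covered the same range, and the mouse to mouse spread within each group (SD 0.13 in SHH livers and 0.17 in GFP livers, n = 3 each) was far larger than the difference of -0.00 (95% interval -0.32 to 0.31, limma). Its sign turned positive with equal array medians (0.02) and with a second quantile normalization (0.03). The probe set lay below the median gene signal on all 6 arrays, so the interval speaks only for the array signal of a dim probe set.

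Gli2 is the factor through which most activation by the ligand runs. Its signal was 3.55, 3.53 and 3.55 in SHH mice 26, 28 and 31, against 3.82, 3.82 and 3.73 in GFP mice 13, 21 and 6. All SHH livers lay below all GFP livers, by a mean of -0.25 on the log2 scale (SE 0.11, 95% interval -0.50 to 0.01), a 1.19-fold lower signal that did not pass in limma (adjusted p = 0.695). The very small spread of the SHH livers (SD 0.01, n = 3) includes 2 equal values. Mice 26 and 31 have the same deposited value to the last digit, which happens between some pair of arrays for 2.55% of the genes below the median level and 0.577% of those above it. Gli2 was dim on all 6 arrays as well.

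Gli3 is cut to a repressor when no ligand is present. Its signal was 3.70, 3.60 and 3.65 in SHH mice 26, 28 and 31, against 3.65, 3.56 and 3.62 in GFP mice 13, 21 and 6. These values interleave, and the difference was 0.04 (95% interval -0.22 to 0.30). SHH mouse 31 and GFP mouse 13 share the same deposited value. Of all 10 genes Gli3 varied least between livers, with 0.14 between the lowest and the highest, and it lay below the median gene signal on all 6 arrays.

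Sufu, the inhibitor that holds the Gli factors in the cytoplasm, gave 4.83, 5.01 and 4.83 in SHH mice 26, 28 and 31, against 4.93, 4.74 and 4.78 in GFP mice 13, 21 and 6. The groups overlapped, with a difference of 0.08 (95% interval -0.21 to 0.36). Sufu was the 1 gene of the 10 with a second probe set, and that probe set disagreed. It gave 3.06, 3.01 and 3.32 in SHH mice 26, 28 and 31, against 3.49, 3.32 and 3.77 in GFP mice 13, 21 and 6. There every SHH liver was below every GFP liver, although SHH mouse 31 (3.321) and GFP mouse 21 (3.323) all but met. The difference was -0.40 (95% interval -0.75 to -0.04 in the fit over all probe sets), which did not pass (adjusted p = 0.660). The brighter probe set lay above the median gene signal on all 6 arrays. The sign of the Sufu difference thus changed with the probe set.

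**Figure D2:**
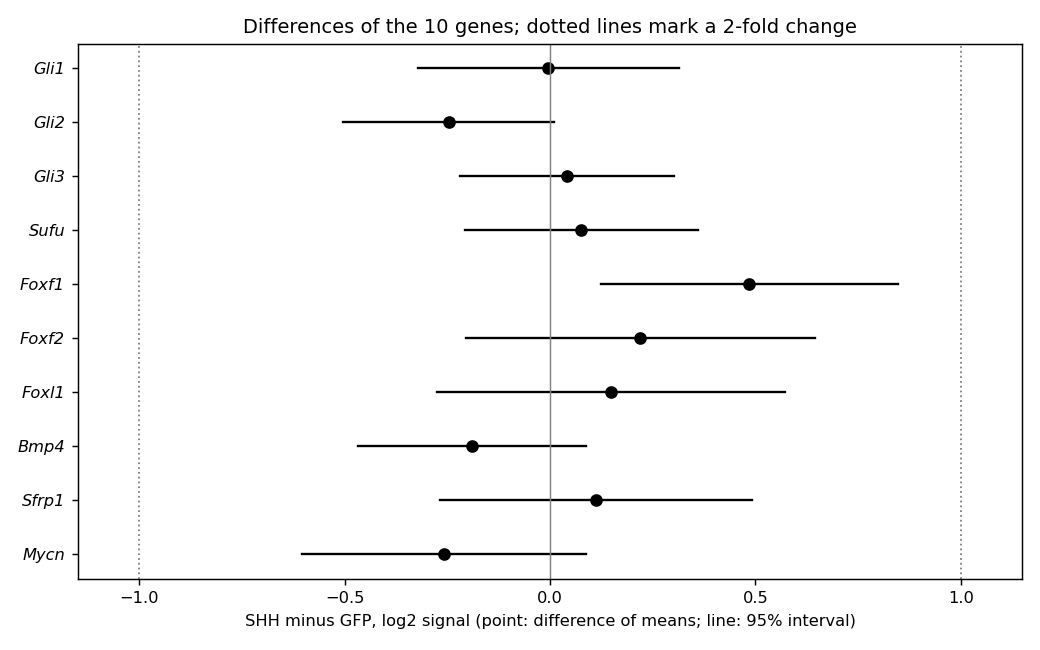
Difference of mean log2 signal, SHH minus GFP (horizontal axis), for the 10 genes, with limma's 95% interval as a line and dotted lines at a 2-fold change. Foxf1 is the 1 gene whose interval, 0.12 to 0.85, lies wholly on one side of 0.

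The forkhead genes Foxf1, Foxf2 and Foxl1 encode transcription factors of the mesenchyme. Foxf1, which in the mouse is needed for the mesenchyme around gut, lung and gall bladder and is made by stellate cells, gave 6.69, 6.22 and 6.65 in SHH mice 26, 28 and 31, against 5.97, 6.20 and 5.94 in GFP mice 13, 21 and 6. SHH mice 26 and 31 stood well above the rest, while SHH mouse 28 lay next to GFP mouse 21. The means were 6.52 ± 0.26 in SHH livers and 6.04 ± 0.14 in GFP livers (SD, n = 3 each), a difference of 0.49 (SE 0.16, 95% interval 0.12 to 0.85). Of all genes, 2.25% had a larger positive difference. Foxf1 had rank 548 by unadjusted p and did not pass (limma, adjusted p = 0.576). The difference ran from 0.40 to 0.63 when each mouse was left out in turn, and the unadjusted limma p was 0.055 without SHH mouse 26. Foxf1 was above the median gene signal on all 6 arrays. In whole liver, more cells that make a transcript and more transcript per cell cannot be told apart.

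Foxf2, the close relative of Foxf1, gave 3.96, 4.19 and 3.93 in SHH mice 26, 28 and 31, against 4.22, 3.58 and 3.63 in GFP mice 13, 21 and 6. Of the 6 livers GFP mouse 13 had the highest value and the other GFP mice the lowest, so the groups overlapped. The difference of 0.22 had a 95% interval of -0.21 to 0.64. It was 0.43 without GFP mouse 13 and 0.10 without GFP mouse 21.

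Foxl1 marks mesenchymal cells under the gut epithelium and, in mice with bile duct injury, cells of the liver's progenitor compartment. It gave 4.34, 3.67 and 4.03 in SHH mice 26, 28 and 31, against 4.08, 3.83 and 3.68 in GFP mice 13, 21 and 6. The highest and the lowest liver were both SHH livers. The difference was 0.15 (95% interval -0.28 to 0.57), and it was -0.01 without SHH mouse 26. Foxf2 and Foxl1 lay below the median gene signal on all 6 arrays.

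**Figure D3:**
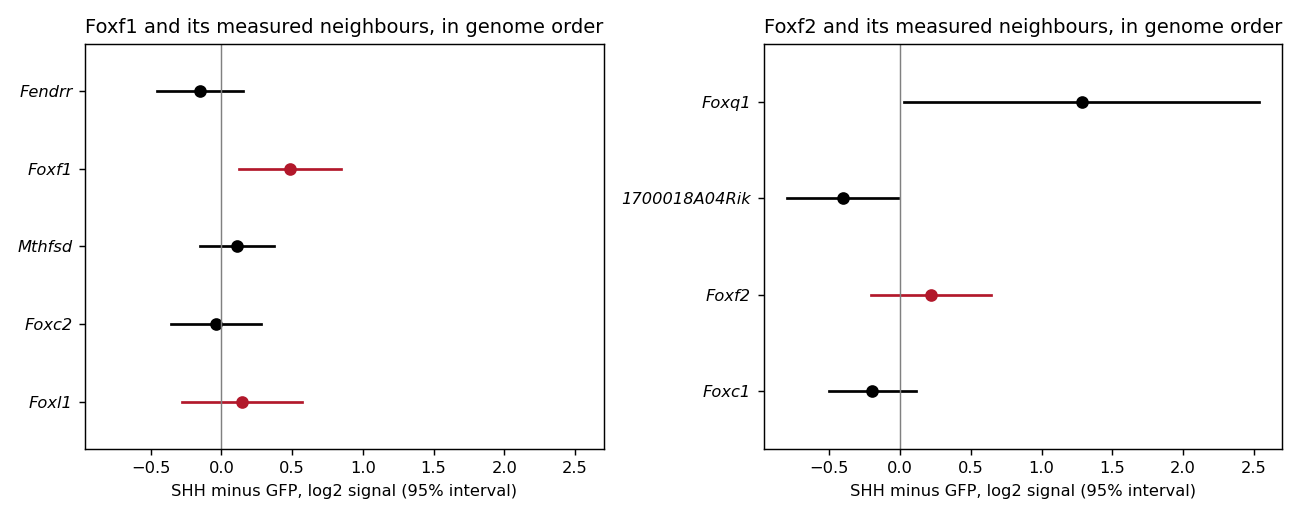
Difference of mean log2 signal, SHH minus GFP (horizontal axis), with limma's 95% interval, for Foxf1 and 4 measured neighbours (left) and Foxf2 and 3 measured neighbours (right), in genome order from top to bottom; red marks Foxf1, Foxf2 and Foxl1. Foxq1 has the highest point, 1.28, and the widest interval.

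Foxf1 and Foxl1 lie in one gene cluster with Foxc2, and Foxf2 lies in another with Foxq1 and Foxc1, so genes around them were read beside them. Of 9 listed neighbours of both clusters, 6 had higher and 3 lower means in SHH livers and 0 passed. The genes lying wholly within 200 kb are drawn in the plot of neighbours, a window set after their values were seen. Next to Foxf1, the long noncoding RNA Fendrr, which is read from the opposite strand, differed by -0.16 (95% interval -0.46 to 0.15). Its signal was 5.01, 5.12 and 5.33 in SHH mice 26, 28 and 31, against 5.42, 5.30 and 5.20 in GFP mice 13, 21 and 6. The difference was 0.11 for Mthfsd and -0.04 for Foxc2, with intervals that include 0. Farther out, Irf8, a transcription factor of macrophages and lymphocytes, differed by 0.56 (95% interval -0.08 to 1.19), which is more than the 0.49 of Foxf1, and was highest in SHH mouse 31 at 6.46. Fbxo31 differed by 0.22. A contrast between Foxf1 and its neighbours was not tested. In the Foxf2 cluster, Foxc1 differed by -0.20 and Exoc2 by 0.08. Gmds, an enzyme of GDP-fucose synthesis, had the smallest unadjusted p of the 9 neighbours, with a difference of 0.52 (95% interval 0.11 to 0.93, adjusted p = 0.594). Foxq1, another forkhead gene, differed by 1.28 (95% interval 0.03 to 2.54, adjusted p = 0.673). It gave 8.55, 8.65 and 7.76 in SHH mice 26, 28 and 31, against 6.46, 6.11 and 8.54 in GFP mice 13, 21 and 6, so GFP mouse 6 was among the high livers. A second, dimmer Foxq1 probe set differed by -0.01 (95% interval -0.35 to 0.33). The noncoding transcript 1700018A04Rik differed by -0.41 (adjusted p = 0.668).

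The secreted factors Bmp4 and Sfrp1 carry the response of mesenchyme to other cells. Bmp4, a ligand of the bone morphogenetic protein pathway, gave 4.66, 4.62 and 4.62 in SHH mice 26, 28 and 31, against 4.93, 4.85 and 4.68 in GFP mice 13, 21 and 6. Every SHH liver was below every GFP liver, but SHH mouse 26 and GFP mouse 6 nearly met. The means were 4.63 ± 0.02 in SHH livers and 4.82 ± 0.13 in GFP livers (SD, n = 3 each), a 1.14-fold lower signal. The difference of -0.19 (95% interval -0.47 to 0.09) did not pass (limma, adjusted p = 0.795). Bmp4 was above the median gene signal on 2 of the 6 arrays.

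Sfrp1, a secreted protein that binds Wnt ligands and keeps them from their receptors, gave 4.87, 4.72 and 4.73 in SHH mice 26, 28 and 31, against 4.43, 5.01 and 4.53 in GFP mice 13, 21 and 6. GFP mouse 21 was the highest of all livers and the other GFP mice the lowest. The GFP livers spread more (SD 0.31, n = 3) than the SHH livers (SD 0.09, n = 3). The difference of 0.11 (95% interval -0.27 to 0.49) became 0.29 without GFP mouse 21 and -0.00 without GFP mouse 13. Sfrp1 was above the median gene signal on 3 of the 6 arrays.

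Mycn, a growth-promoting factor of the Myc family that Hedgehog input raises in granule neuron precursors of the mouse cerebellum, gave 4.12, 3.94 and 4.32 in SHH mice 26, 28 and 31, against 4.60, 4.25 and 4.31 in GFP mice 13, 21 and 6. SHH mouse 31 lay within the range of the GFP livers, while mice 26 and 28 lay below it. The difference of -0.26 (95% interval -0.60 to 0.09) was the lowest of the 10, and 10.5% of all genes had a lower one. It ran from -0.36 to -0.15 when each mouse was left out in turn. Mycn lay below the median gene signal on all 6 arrays.

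**Figure D4:**
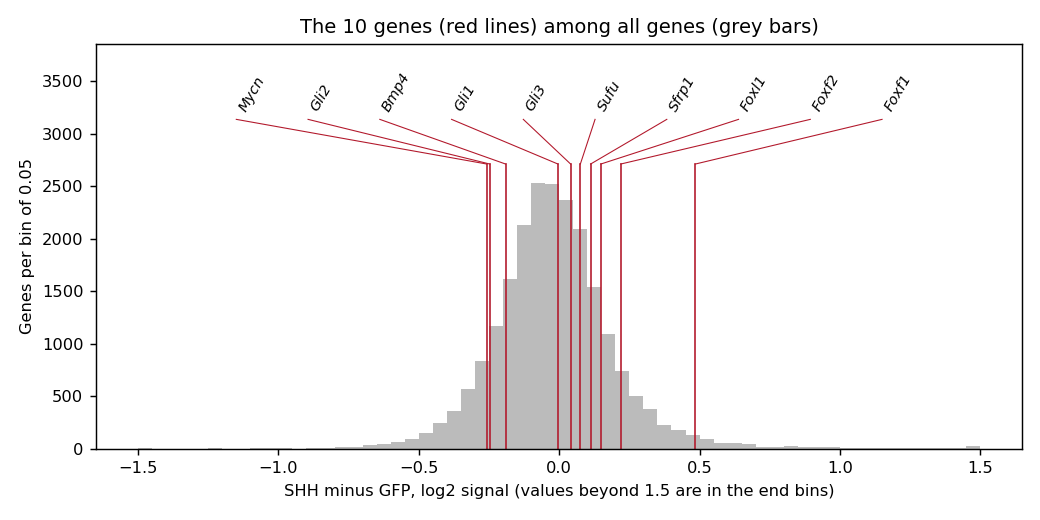
Number of genes (vertical axis) by SHH minus GFP difference in log2 signal (horizontal axis, bins of 0.05, values beyond 1.5 in the end bins) for all 22180 genes, with the 10 genes as red lines. Mycn at -0.26 and Foxf1 at 0.49 are the outermost of the 10.

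The rest of the pathway was read from lists of other Hedgehog genes. Of 10 genes for ligands and their release, 2 had higher and 8 lower means in SHH livers and 0 passed in either direction; Shh differed by 0.84 (95% interval 0.48 to 1.19, adjusted p = 0.356), and Scube1, which helps release the ligand, by 0.38. Among 12 measured genes of reception and transduction, 5 means were higher, 7 were lower and 0 passed. There Hhip, a membrane protein that binds the ligand and is induced by the pathway, gave 7.00, 6.48 and 6.84 in SHH mice 26, 28 and 31, against 5.29, 5.45 and 5.40 in GFP mice 13, 21 and 6. No gene of the array had a smaller unadjusted p than Hhip, which did not pass (adjusted p = 0.174). Ptch1, the receptor and likewise a gene induced by the pathway, gave 7.11, 7.12 and 6.85 in SHH mice 26, 28 and 31, against 6.99, 7.00 and 7.00 in GFP mice 13, 21 and 6, a difference of 0.03 (95% interval -0.26 to 0.32). The endocytic receptor Lrp2 differed by -0.33. None of the 10 genes described here had a difference near the 1.39 of Hhip.

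Of 22 measured regulators of Gli and Sufu, such as kinases and ubiquitin ligases, 11 had higher and 11 lower means and 0 passed. The kinase Dyrk2, which phosphorylates Gli2, gave 7.68, 7.48 and 7.41 in SHH mice 26, 28 and 31, against 7.88, 7.91 and 7.90 in GFP mice 13, 21 and 6. Every SHH liver was below every GFP liver for Dyrk2, by a mean of -0.37 (adjusted p = 0.576). Prkar1a, a regulatory subunit of protein kinase A, differed by 0.22. A list of 23 measured genes reported as Hedgehog targets counts Hhip and Ptch1 again. Of the 23, 13 had higher and 10 lower means and 0 passed. After Hhip the smallest unadjusted p was that of the transcription factor Osr1, which differed by -0.64 (95% interval -0.98 to -0.30, adjusted p = 0.409). At an unadjusted limma p under 0.05, 3 of the 23 were higher and 1, Osr1, was lower. The 3 were Hhip, Ccnd1 and Ccne1. Ccnd1 differed by 1.10 (95% interval 0.43 to 1.78, adjusted p = 0.490) and Ccne1 by 0.36 (adjusted p = 0.612). The medians of these 4 lists were -0.08, -0.06, -0.01 and 0.03, against -0.03 for all genes.

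Markers of the cells that make these genes were read in the same livers. Of 12 hepatic stellate cell markers, the mean was higher in SHH livers for 8, and 0 passed. Their mean signal was 6.28 to 6.34 in SHH livers and 6.17 to 6.31 in GFP livers. Of 12 measured markers of myofibroblasts and portal fibroblasts, 8 had higher and 4 lower means and 0 passed. Their mean was 5.28 to 5.69 in SHH livers, highest in mouse 31, and 5.29 to 5.36 in GFP livers. Pdgfra, the receptor for platelet-derived growth factor on fibroblasts, had the smallest p of these, with 6.48, 6.50 and 6.55 in SHH mice 26, 28 and 31 against 5.83, 5.99 and 5.69 in GFP mice 13, 21 and 6 (difference 0.67, adjusted p = 0.356). Of the 4 fibroblast markers with lower means, Acta2 had the smallest p. Acta2 gave 6.22, 5.97 and 6.12 in SHH mice 26, 28 and 31, against 6.08, 6.45 and 6.78 in GFP mice 13, 21 and 6. The groups overlapped for Acta2, with a difference of -0.33 (limma, adjusted p = 0.753). Smooth muscle markers had higher means for 2 of 6 and mesothelial markers for 1 of 6.

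Markers of other cells also differed in mean between the groups. All 9 macrophage markers had higher means in SHH livers, where their mean signal was 7.13 to 8.11, against 6.46 to 7.35 in GFP livers. All 7 neutrophil markers had higher means, with 3.80 to 4.84 in SHH livers against 3.36 to 3.54 in GFP livers, and so did all 7 measured markers of B and T lymphocytes. In contrast, 9 of 10 endothelial markers had lower means (6.33 to 7.00 in SHH livers and 6.66 to 7.09 in GFP livers), as did 5 of 7 bile duct markers. By mean over the livers, 0 of the 7 neutrophil markers and 2 of the 7 lymphocyte markers lay above the median gene signal. All 9 macrophage markers lay above it. The smallest difference of a lymphocyte marker was 0.002. No marker of any of these lists passed over all genes. Their part in the differences of Foxf1, Gli2 and Bmp4 was not tested.

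As a description of pattern, the 3 genes whose signal followed each of the 10 most closely over the 6 livers were found among 19394 candidates. Pearson's r with Foxf1 was 0.994 for Galnt3, 0.989 for Cd2 and 0.984 for Trim21. With Gli2 it was 0.997 for Gp6, 0.990 for Psg19 and 0.989 for Fut1, and with Gli1 it was 0.997 for Fam110b. Over all 10 genes these values ran from 0.980 to 0.997, as high for dim genes as for Foxf1. With 6 livers and so many candidates they describe these arrays alone.

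**Figure D5:**
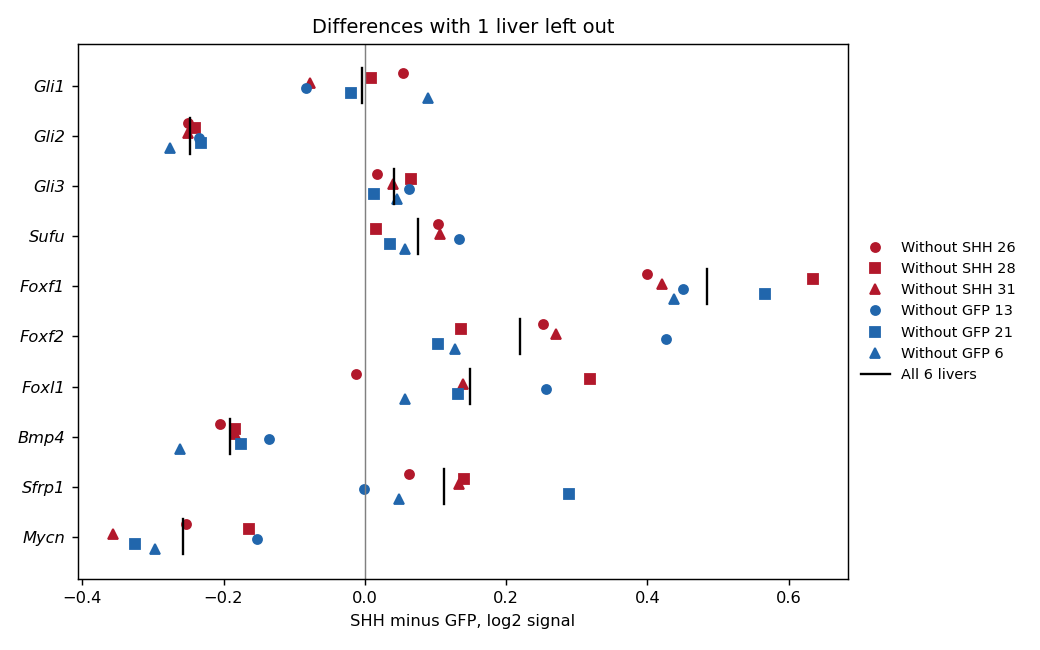
Difference of mean log2 signal, SHH minus GFP (horizontal axis), for the 10 genes with each mouse left out in turn (red, an SHH mouse left out; blue, a GFP mouse left out; black line, all 6 livers). Foxf1 stays between 0.40 and 0.63, Gli2 between -0.28 and -0.23, and Gli1, Foxl1 and Sfrp1 have points on both sides of 0.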

How the data were processed

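Gene expression was measured on Affymetrix arrays in 3 SHH and 3 GFP livers. The deposited values are log2 signals made with RMA by the authors, per the submitters' processing notes; the version and genome build were not given in the sources used here. Of 41345 probe sets, 23521 named 1 gene, 1814 several and 16010 none in the platform annotation. For each of 22180 genes the single-gene probe set of highest mean was kept. SHH and GFP livers, grouped by sample title, were tested against each other in R 4.3.3 by limma 3.58.1 (eBayes, two-sided, no filter or covariate), with Benjamini-Hochberg adjustment over all genes at 0.05; the exact permutation test used the 20 splits of 6 mice. The labels give no batch. The number of arrays limits the precision.

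The 10 genes and all lists were chosen with earlier results of these data known. Values were given for all 10 and for the 2 genes of smallest p per list of pathway genes or relatives. Ptch1, Ccnd1, Ccne1, Pdgfra, Acta2, Bmp1 and the Fox neighbours other than Gmds and Foxq1 were named after their values were seen. In each of 5 simulated runs of the SHH minus GFP comparison, 200 of 22180 genes were changed by 1 or 2 on the log2 scale. Of these, 74.8% of genes changed by 1 and 98.8% of those changed by 2 were recovered, with 4.49% of calls false. Recovery below 1 was not tested, and the largest difference of the 10 genes was 0.49 (Foxf1). In the livers, Hhip at 1.39 did not pass (limma, adjusted p = 0.174). Also tried were the probe set of largest interquartile range, averaging a gene's probe sets, every probe set, genes above the median level, 2 rescalings, a trended or robust prior, array weights and each mouse left out. Sequences are RefSeq's, GRCm38.p6.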

Additional observations from a re-analysis of the deposited data

How the results depend on the processing

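Of 145 recomputed differences of the 10 genes, 52 repeat the reported value because the setting changes only the test or the gene has 1 probe set. In the other 93 the sign was kept in 83 and turned in 10. The lowest adjusted p was 0.435 (limma), so no gene of the 10 passed under any alternative run. Signs turned for Gli1, with a second quantile normalization (0.034) and equal array medians (0.018), and over the left-out mice it ran from -0.083 to 0.089. They also turned for Sufu with the mean of both probe sets (-0.16), with the probe set of largest interquartile range (-0.40) and with the dimmer probe set tested alone (-0.40). With a mouse left out, Foxl1 ran from -0.012 to 0.318, turning without SHH mouse 26, and Sfrp1 from -0.0013 to 0.288, turning without GFP mouse 13. Over all genes, leaving out 1 mouse gave 0 to 30 genes higher and 0 to 16 lower, the higher counts without SHH mouse 26; each other alternative gave 0. At an unadjusted p under 0.05, genes higher among the 10 numbered 0 without SHH mouse 26 and 2 without GFP mouse 13, against 1. Over all 22180 genes the same counts were 906 and 606, against 738. Genes lower among the 10 numbered 1 (Sufu, dimmer probe set) with the largest interquartile range and with every probe set, against 0. There the counts over all were 896 of 22180 genes and 929 of 23521 probe sets, against 889 genes. Only 4 of the 10 entered the test of genes above the median level. No paired analysis was possible because no mouse number occurs in both groups.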

Other observations

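Relatives of the secreted factors were also measured. Of 10 other genes listed with the bone morphogenetic proteins, 4 had higher and 6 lower means in SHH livers and 0 passed; the 4 include Bmp1 (0.08), which encodes a procollagen protease and not a ligand of this family. Bmp7 gave 5.07, 4.92 and 4.91 in SHH mice 26, 28 and 31, against 5.38, 5.47 and 5.61 in GFP mice 13, 21 and 6, so that every SHH liver was below every GFP liver, as for Bmp4 (difference -0.52, 95% interval -0.80 to -0.24; limma, adjusted p = 0.409). Bmp3 differed by 0.34. Of these 10 genes, 2 had every SHH liver below every GFP liver, Bmp7 among them, as in 7.25% of all genes. Another 2 had every SHH liver above every GFP liver, Bmp3 among them, as in 5.26% of all genes. Of 10 genes that respond to these ligands, 5 had higher and 5 lower means and 0 passed; Id4 differed by -0.33 and Id3 by 0.34. Of 7 measured antagonists of these ligands, 5 had higher means and 0 passed, with Fst at 0.19 and Twsg1 at 0.20.

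Of 9 relatives of Sfrp1 and other Wnt antagonists, 3 had higher and 6 lower means and 0 passed. Sfrp4, another secreted frizzled-related protein, gave 2.94, 2.81 and 3.04 in SHH mice 26, 28 and 31, against 3.56, 3.20 and 3.27 in GFP mice 13, 21 and 6 (difference -0.41, adjusted p = 0.591). Sfrp2 differed by -0.21. In the Myc family, where Mycn differed by -0.26, Myc differed by 0.50 (95% interval -0.02 to 1.01), with 6.63, 6.44 and 6.54 in SHH mice 26, 28 and 31 against 6.02, 5.55 and 6.55 in GFP mice 13, 21 and 6. Of 10 genes of the Myc family and its partners, 3 had higher and 7 lower means and 0 passed, with Mxd3 at -0.17. Of 7 measured zinc finger relatives of the Gli factors, 3 had higher and 4 lower means and 0 passed, with Zic1 at -0.31 and Zic5 at -0.17.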
